A study of Mus musculus with 2 samples.

Results

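Transcripts of 10 listed genes of selenium biology were described in the small intestine of the mouse. The genes were Selenop, the glutathione peroxidase genes Gpx1, Gpx2, Gpx3 and Gpx4, and Txnrd1, Selenow, Selenof, Selenok and Sephs2. They were taken by name, not by a threshold on values, though the list was chosen with earlier results of these data known. All 10 were found among the 43346 Ensembl genes measured. The tissue came from 1 female adult C57BL/6J mouse aged 10 weeks, with no treatment or altered genotype given in the labels. Polyadenylated RNA was sequenced in 2 libraries that the labels number as technical replicates of 1 biological replicate, called the first and the second library here. The second was made in 2015. No conditions were compared, so each pair of values below shows the level of a transcript and how far a repeat library of the same tissue returned it. Paired values are always in the order first, second (n = 2 technical libraries from 1 animal), and none of them describes variation between mice.

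Selenoproteins contain selenocysteine, an amino acid that is inserted at a UGA codon which would otherwise end translation. Its insertion needs a dedicated tRNA, an RNA structure in the untranslated end of the mRNA and a protein that binds that structure. Most selenoproteins with a known activity are redox enzymes, and in the gut the glutathione peroxidases reduce peroxides formed in, or reaching, the epithelium. Selenop differs in kind, since it is a secreted carrier that brings selenium from the liver to other organs.

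The codons that define these genes are shown first, because they mark the members as selenoprotein genes and because the transcript isoforms described later differ in whether they are annotated to decode them. Sequences are from GENCODE M21 transcripts (mouse assembly GRCm38, mm10), written 5′ to 3′ as DNA in lower case, with the in-frame selenocysteine codon TGA in capitals. Selenop-201, the main Selenop transcript, held 10 such codons in a protein of 380 residues. The first was at residue 59 and the others lay between residues 259 and 377. The run below holds 7 of the 10, from residue 277 to residue 375, and lies at chr15:3279396-3279692 on the plus strand.
Selenop: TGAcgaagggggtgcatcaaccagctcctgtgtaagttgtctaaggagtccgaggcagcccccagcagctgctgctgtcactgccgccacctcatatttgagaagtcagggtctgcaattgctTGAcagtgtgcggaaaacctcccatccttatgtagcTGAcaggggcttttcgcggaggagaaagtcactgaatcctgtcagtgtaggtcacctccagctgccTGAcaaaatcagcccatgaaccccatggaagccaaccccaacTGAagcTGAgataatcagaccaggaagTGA
Each glutathione peroxidase member held 1 such codon, at residue 47 of 201 in Gpx1, 40 of 190 in Gpx2, 73 of 226 in Gpx3 and 73 of 197 in Gpx4. The windows of 63 bases around it are shown to compare the active sites of the 4 paralogs.
Gpx1: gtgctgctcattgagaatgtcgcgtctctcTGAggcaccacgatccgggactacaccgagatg
Gpx2: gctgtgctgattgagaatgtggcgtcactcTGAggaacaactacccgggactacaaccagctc
Gpx3: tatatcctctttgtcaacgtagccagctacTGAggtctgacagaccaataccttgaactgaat
Gpx4: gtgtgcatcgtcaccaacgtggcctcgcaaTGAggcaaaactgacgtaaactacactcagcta
Aligned at the TGA without gaps, the Gpx1 and Gpx2 windows shared 49 of 63 bases (77.8%). Gpx4 shared 35 bases (55.6%) with Gpx1 and the same number with Gpx2. Gpx3 was the most distant, with 27 to 29 shared bases in its 3 pairs. In Txnrd1 and Selenok the codon stood at the far end of the protein, at residue 498 of 499 and residue 92 of 94, and in Selenow it stood near the start, at residue 13 of 88. These 3 are shown to place the codon along the protein, and the short flanks of Txnrd1 and Selenok after the TGA run to the last coding codon.
Txnrd1: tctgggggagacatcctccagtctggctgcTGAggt
Selenow: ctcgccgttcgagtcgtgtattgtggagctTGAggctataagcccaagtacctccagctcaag
Selenok: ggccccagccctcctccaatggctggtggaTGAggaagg

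Depth was 28277875 expected counts in the first library and 24509862 in the second. Mitochondrial genes and their nuclear copies took 41.9% of counts and 72.3% of TPM in the first library, against 9.68% and 21.6% in the second, and 9391 and 13571 genes reached 1 TPM. TPM is a level corrected for transcript length and scaled to a fixed sum, so the mitochondrial share lowers the TPM of every nuclear gene. All 8 enterocyte markers were at 1 TPM or more in both libraries (summed TPM 7257 and 33372). Of 5 hepatocyte markers, 3 were under 1 TPM in both libraries and Ahsg was at 0 counts, with a summed TPM of 1.46 and 6.64. All 5 pancreatic acinar markers were at 1 TPM or more in both (summed TPM 1552 and 9176), although the labels name small intestine only. Of these sums Amy2a5 alone held 1355 and 1821 TPM. The division of its reads among genes was uncertain (posterior SD 33918 on 61110 counts and 31529 on 52727). Macrophage markers summed to 4.85 and 227 TPM, with 4 of 5 at 1 TPM or more in the second library alone. In a bulk sample, fewer cells of a type and less RNA per cell cannot be told apart, and the part of any cell type in the values below was not tested.

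Selenop was the most abundant member by a wide margin, and the glutathione peroxidase transcripts were at much higher levels in the second library than the first. Selenop stood at 4787 and 5041 TPM. The next highest member reached 282 TPM in the first library and 659 TPM in the second. Selenop exceeded the next member 17.0-fold in the first library, where that was Selenof, and 7.65-fold in the second, where it was Gpx4. It made up 88.4% and 67.9% of the summed TPM of the 24 mouse selenoprotein genes examined. By mean TPM the order was Selenop, Gpx4, Selenof, Gpx1, Txnrd1, Sephs2, Selenow, Gpx2, Selenok and Gpx3. Only Selenop and Gpx4 were separated among the 9 neighbouring pairs of that order, and the other 8 pairs had overlapping ranges over the 2 libraries. TPM as deposited was higher in the second library for 9 members and in the first for Selenof. With TPM rescaled to genes outside the mitochondrial set, Selenop, Txnrd1 and Selenok were also lower in the second library. Their log2 ratios were then -1.43, -0.13 and -0.69, beside -2.07 for Selenof, and the other members stayed higher in the second.

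**Figure D1:**
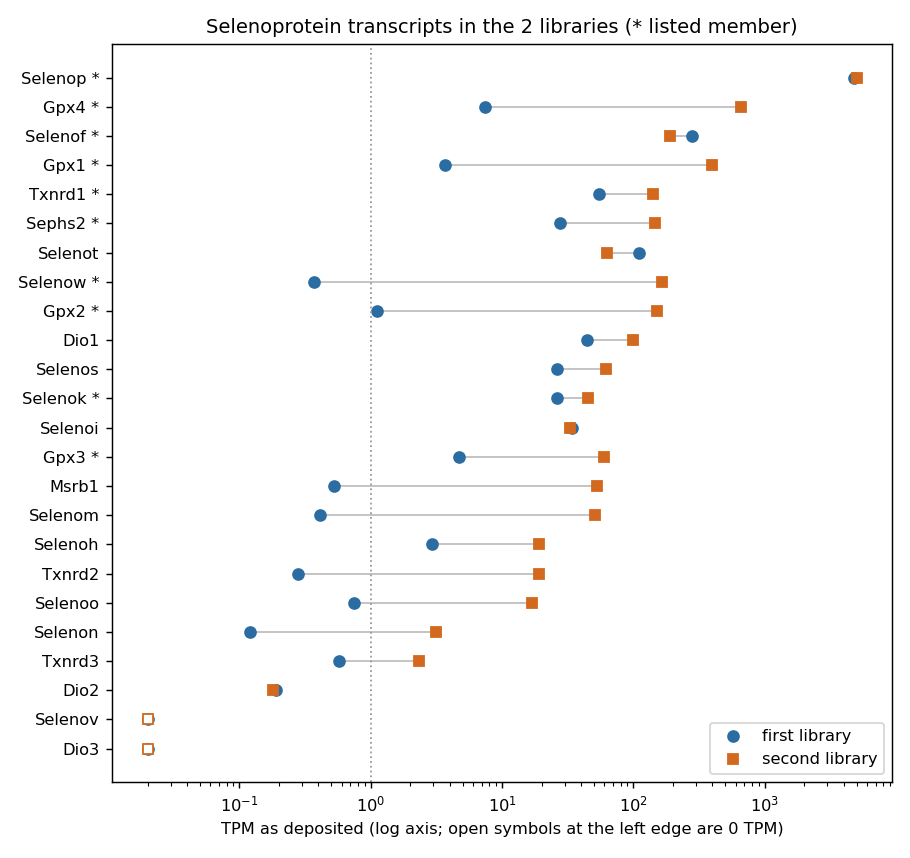
Levels of the 24 selenoprotein genes in the first library (circles) and the second (squares), in TPM on a log axis, ordered by the mean, with listed members starred and a dotted line at 1 TPM. Selenop sits alone near 5041 TPM in both libraries, whereas Gpx4, Gpx1, Gpx2 and Selenow are joined by long lines, and Selenov and Dio3 are at 0 TPM in both.

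The libraries were compared gene by gene with a two-sided exact binomial test on rounded expected counts, scaled by TMM library sizes. Genes with a Benjamini-Hochberg adjusted p under 0.05 and a difference of 2-fold or more were called. The test compares 2 libraries, and its errors and intervals cover counting error only, as the labels describe no molecular identifiers to tell reads of the same molecule apart. All 10 members had enough counts to be tested. In the second library 6 of them were called higher, against 40.2% of the 15194 genes tested, and in the first library 2 were, against 27.4%. The median log2 ratio (second over first) of the 10 was 2.05, beside 0.26 for all genes tested. The calls went 6 to 0 with library sizes set to total counts, a scaling that called 51.3% of all tested genes higher in the second and 10% in the first.

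Selenop, the selenium carrier, lies at chr15:3268547-3280508 on the plus strand (ENSMUSG00000064373). It held 257904 counts in the first library and 150906 in the second. Among 21461 protein-coding genes outside the mitochondrial set it ranked 1 in the first library and 13 in the second. Its TPM values were close, but its scaled counts were higher in the first library, with a log2 ratio of -1.41 (counting SE 0.0047) and a fold of 2.65 (95% interval 2.63 to 2.67). With total counts as the scaling the log2 ratio was -0.57 and the call was lost. A gene on the opposite strand, Ccdc152, overlaps 439 of its 2842 exonic bases and was at 0 counts in both libraries. The sources used here do not say whether the counting used strand.

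The second library was higher for all 4 glutathione peroxidase members, whose summed TPM was 17.0 in the first library and 1269 in the second. Gpx4, which reduces lipid hydroperoxides within membranes and guards cells against ferroptosis, was the most abundant of them by TPM (chr10:80047166-80056439). It held 90 counts (7.46 TPM) in the first library and 8891 (659 TPM) in the second, a fold of 63.7 (95% interval 51.8 to 79.3). Gpx1, the widely expressed cytosolic enzyme that reduces hydrogen peroxide, lies at chr9:108338903-108340343. It held 96 counts (3.68 TPM) and 4868 counts (400.1 TPM), a fold of 32.7 (26.7 to 40.5). In both genes the second library was far above the first, with count intervals of 72.4 to 111 and 77.8 to 117 in the first.

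Gpx2, known as the gastrointestinal glutathione peroxidase of the epithelium, lies at chr12:76792333-76795554 on the minus strand. Its counts were 29 (95% Poisson interval 19.4 to 41.6) and 2513, or 1.12 and 150.03 TPM, a fold of 55.9 (38.8 to 83.6). Gpx3, the secreted form found in plasma, had 133 and 1597 counts, or 4.69 and 59.9 TPM, and lies at chr11:54902453-54910377. Its fold of 7.74 (6.48 to 9.31) was the smallest of the 4, with an adjusted p of 1.27e-196 by the exact binomial test. Within the 4 genes, Gpx4 held 44.0% and 51.9% of the summed TPM and Gpx1 21.7% and 31.5%. Gpx3 held 27.7% in the first library and 4.72% in the second, so the order by TPM below Gpx4 was not the same in both. By first-library counts, Gpx4 (90) stood below Gpx3 (133) and Gpx1 (96). Isoforms annotated with selenocysteine held 1.65 TPM for Gpx4 in that library, 3.68 for Gpx1 and 4.69 for Gpx3.

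The enzyme of the thioredoxin system and the enzyme that supplies selenium for selenocysteine differed less between libraries. Txnrd1, the cytosolic reductase that keeps thioredoxin in its active form, lies at chr10:82833951-82897712. It had 5252 and 8673 counts, or 55.0 and 142 TPM. The log2 ratio was 0.09 (counting SE 0.025), short of the 2-fold limit although its adjusted p was 0.000401 by the exact binomial test. Sephs2, which makes the selenophosphate used to build selenocysteine and is itself a selenoprotein, lies at chr7:127271879-127274055 on the minus strand. Its counts were 954 and 3276, or 27.6 and 147 TPM, and it was higher in the second library by 2.21-fold (2.06 to 2.38). An unnamed gene model on the opposite strand, Gm44729, overlaps 792 of the 2177 exonic bases of Sephs2 in GENCODE M21. It is not among the genes measured. Sephs2-201 was quantified at a length of 1359 bases, and how much of the overlap lies within that length was not examined.

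The 3 smaller members took 3 different courses. Selenow, a short protein with a thioredoxin-like fold first known from muscle, lies at chr7:15917208-15922402 on the minus strand. It had 6 counts in the first library (95% Poisson interval 2.20 to 13.1) and 1733 in the second, or 0.37 and 165 TPM. Its fold of 186 (85.4 to 508) was the largest of the members and rests on those 6 counts. Selenof, a protein of the endoplasmic reticulum that binds the folding sensor UGGT, lies at chr3:144570304-144597680. With 6685 and 3571 counts, or 282 and 191 TPM, it was the only member besides Selenop to be called higher in the first library, by 2.90-fold (2.79 to 3.02). Selenok, a membrane protein of the endoplasmic reticulum that works with derlins and with the palmitoyl transferase ZDHHC6, lies at chr14:29968308-29975662. It had 688 and 782 counts, or 26.0 and 45.5 TPM, with a log2 ratio of -0.45 (counting SE 0.075) that did not reach 2-fold.

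Sharing of reads with near-identical genes was small. Copies at 90% identity or more over at least 100 bases were found for Gpx2 (1 copy) and Selenok (2 copies), and these held 2 counts in each library in all. The highest posterior SD of a gene-level count among the members, a measure of how uncertain the division of reads was, was 0.19 counts.

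The ratio between libraries followed the GC content of the transcripts, a pattern the members shared with the tested genes at large. The members ranged from Selenof (44.1% GC) and Selenop (45.3%) to Selenow (57.2%) and Gpx4 (58.3%). These are unweighted means over the transcripts of a gene. The main transcripts can differ from them, as Selenop-201 alone has 43.2% GC and Selenok-201 45.7%, where the gene means were 45.3% and 47.4%. Across the 10 members Spearman's rho between GC content and the log2 ratio was 0.952 and Pearson's r was 0.936. Across all 15127 nuclear genes tested the values were 0.855 and 0.7995. These are descriptions across genes that share the same 2 libraries. The 5 members at 53.8% GC or more all had log2 ratios of 2.95 or more, and the 4 at 48.9% or less had ratios of 0.09 or less. Sephs2 (log2 ratio 1.15) was placed between them at 52.1% GC, from an M21 transcript of 2177 bases. It was quantified at 1359 bases, and its coding sequence alone has 56.3% GC. Its place, and so the rho of 0.952, depends on the transcript model used.

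**Figure D2:**
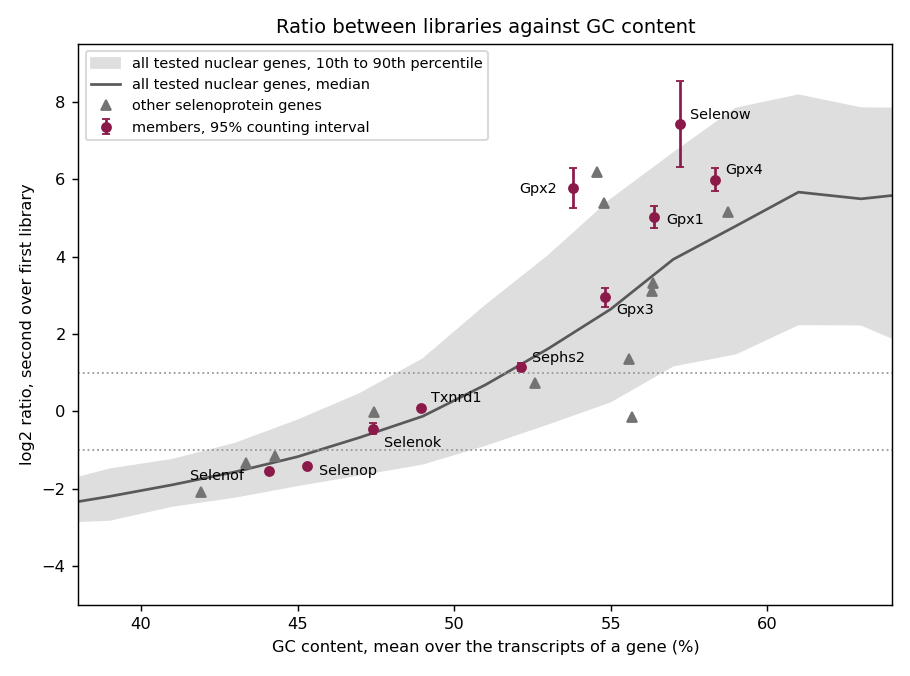
Log2 ratio of the second over the first library (y axis) against the GC content of each gene in percent (x axis), for the members (filled circles with 95% counting intervals) and the other selenoprotein genes (triangles), over the median (line) and the 10th to 90th percentile (grey band) of all tested nuclear genes. Dotted lines mark 2-fold. The members climb with the line, and Gpx2 (53.8% GC) and Selenow (57.2% GC) stand above the grey band.

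Set against genes of like GC content, 8 members lay between the 10th and 90th percentile of the tested nuclear genes within 1 percentage point. Gpx2 had a log2 ratio of 5.78 where 1683 such genes had a median of 2.03 and a 90th percentile of 4.597. Selenow had 7.43 where 1351 such genes had a median of 4.06 and a 90th percentile of 6.87. Once the GC trend over tested nuclear genes was subtracted, the median log2 ratio of the members was 0.25, beside -0.01 for all genes tested. The second library then had 4 members called higher, against 17.5% of 15151 genes, and the first had 0, against 17.4%. The 4 were Gpx2 (3.75), Selenow (3.48), Gpx1 (1.52) and Gpx4 (1.504). Selenop (-0.34), Selenof (-0.22) and Gpx3 (0.32) were no longer called, and Sephs2 went from 1.15 to -0.05. Sephs2 was set at 52.1% GC, where the trend was 1.20. Its coding sequence alone has 56.3% GC, and at the 56.4% of Gpx1 the trend was 3.51. The -0.05, and with it the 0 calls for the first library, thus rests on an M21 transcript longer than the one quantified. No other gene property was adjusted for, and the source of the trend was not tested.

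**Figure D3:**
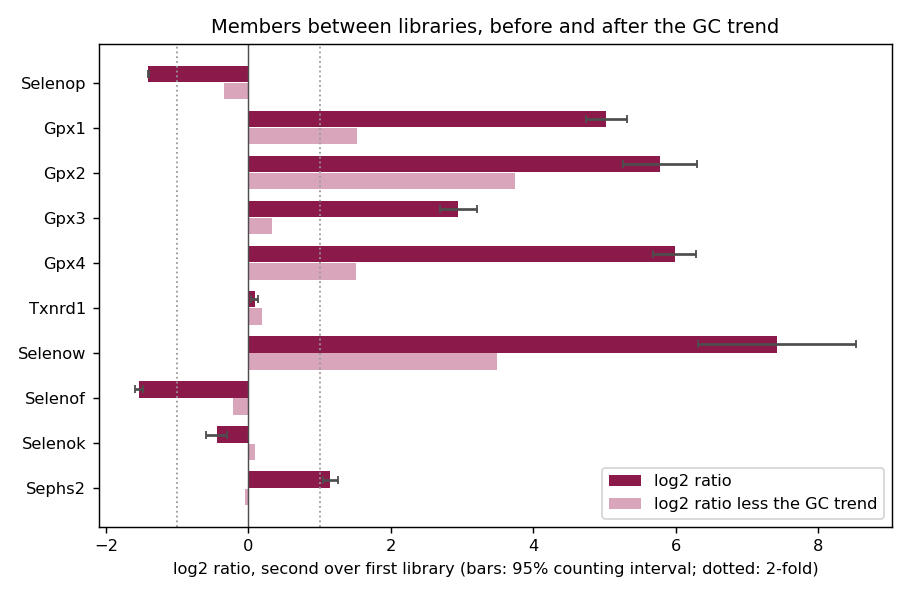
Log2 ratio of the second over the first library for each member (dark bars, error bars are 95% counting intervals) and the same ratio less the GC trend of all tested nuclear genes (light bars), with dotted lines at 2-fold. Every light bar but those of Gpx2, Selenow, Gpx1 and Gpx4 lies within the dotted lines, and only Txnrd1 has a light bar longer than its dark one.

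The members also differed in which isoforms carried their TPM, and for several the isoform share was not the same in both libraries. The tables held 31 transcripts of the members, of which Gpx2, Selenow, Sephs2 and Txnrd1 had 1 each. Isoform shares are estimates that divide reads among overlapping transcripts, and transcripts spliced or started elsewhere need not carry the selenocysteine reading frame. For Selenop, the full-length Selenop-201 took 99.6% and 83.3% of the gene's TPM. The rest of the second library was mainly Selenop-204, a retained-intron transcript of 516 bases that spans 1 of the 10 selenocysteine codons. It had 51.9 and 4897 counts, or 5.37 and 768 TPM, so isoforms annotated with selenocysteine held 99.89% and 84.8% of Selenop TPM. By counts, which do not weight short transcripts up, those isoforms held 99.98% and 96.8%.

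The share of TPM annotated with selenocysteine in Gpx1 was 100% in the first library and 36.6% in the second. By counts it was 100% and 50.7%. In the first library all 96 counts were assigned to Gpx1-201, the isoform of 201 residues with selenocysteine. In the second, Gpx1-204 had 50.7% of the TPM, Gpx1-201 had 36.6% and Gpx1-202 had 12.5%. Gpx1-204 and Gpx1-202 contain the UGA, but their annotated coding part starts 27 bases downstream of it. The posterior SD of the second library's count was 107 for Gpx1-201 (2467 counts) and 59.6 for Gpx1-204 (1817 counts).

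For Gpx4 the share of TPM annotated with selenocysteine was 22.1% and 98.8%, or 37.6% and 99.7% by counts. The 2 libraries were assigned different main transcripts. Gpx4-202, with a protein of 197 residues, had 14.6% and 73.1% of the TPM, and Gpx4-207 had 7.51% and 25.6%. In the first library 77.9% was given to Gpx4-205, a processed transcript without a coding sequence, which was at 0 in the second. That share rests on 56.2 of 90 counts, with a posterior SD of 5.34 counts. Gpx4-201, the longest form, had 0 and 1.16 TPM. Gpx3 was divided between Gpx3-201 (41.7%) and Gpx3-202 (58.3%) in the first library and was wholly Gpx3-201 in the second.

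The main isoform of Selenof in the first library also lacked a coding sequence. Selenof-203, a processed transcript, had 3428 and 841 counts and 64.7% and 36.2% of the TPM. Selenof-201 had 12.8% and 37.0%, and Selenof-202 had 22.2% and 26.3%. Isoforms annotated with selenocysteine thus held 35.0% and 63.3% of Selenof TPM. By counts they held 48.5% and 76.2%. Selenok was almost entirely Selenok-201, at 98.9% in the first library and with no other isoform in the second.

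**Figure D4:**
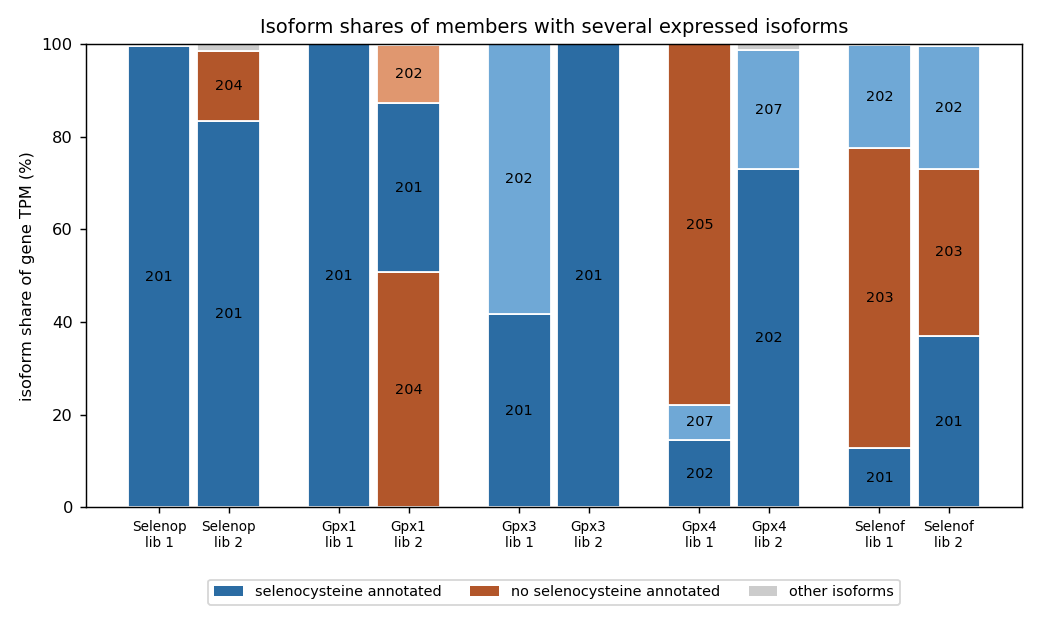
Isoform shares of gene TPM in percent (y axis, stacked to 100) for the 5 members with several expressed isoforms, in the first (lib 1) and second (lib 2) library. Blue isoforms are annotated with selenocysteine, brown ones are not and grey holds the rest, and the brown part is large for Gpx1 in the second library, for Gpx4 in the first and for Selenof in both.

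The other 14 selenoprotein genes were less abundant than the leading members. Dio1, the deiodinase that activates thyroid hormone, was the highest among them in the second library, at 44.6 and 98.7 TPM. Selenot, a redox protein of the endoplasmic reticulum, was highest in the first, at 110.0 and 62.8 TPM. Selenos, a partner of derlins in protein export from the endoplasmic reticulum, stood at 26.1 and 62.3 TPM, and Selenoi, an enzyme of phospholipid synthesis, at 34.0 and 33.2 TPM. The methionine sulfoxide reductase gene Msrb1 stood at 0.53 and 52.9 TPM, and Selenom, of the endoplasmic reticulum, at 0.41 and 50.9 TPM. The mitochondrial reductase gene Txnrd2 stood at 0.28 and 19 TPM from 4 and 511 counts. Selenoh stood at 2.94 and 19.2 TPM, Selenoo at 0.74 and 17.0, Selenon at 0.12 and 3.14, and Txnrd3 at 0.57 and 2.32. Dio2, Dio3 and Selenov were under 1 TPM in both libraries, and Dio3 and Selenov had 0 counts, which allows up to 0.106 and 0.122 CPM.

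Of all 24 selenoprotein genes, 22 were tested. The second library was higher for 12 and the first for 5, against 40.2% and 27.4% of all genes tested. The median log2 ratio was 1.25. With the GC trend subtracted the counts were 6 and 2, against 17.5% and 17.4% of all genes, and the median was 0.14. The 2 called lower after subtraction were Dio1 (-3.26) and Selenoh (-1.71), while Txnrd2 (3.73) and Msrb1 (2.80) joined the 4 members above. Dio1 had almost the same scaled level in both libraries, with a log2 ratio of -0.14 at 55.7% GC, where Gpx3 at 54.8% GC had 2.95. Across the 12 tested selenoprotein genes outside the members, Spearman's rho between GC content and log2 ratio was 0.678.

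The glutathione peroxidase family has 8 genes, of which some mouse members use cysteine in place of selenocysteine. Gpx5 and Gpx6 had 0 counts in both libraries. Gpx8, a cysteine form of the endoplasmic reticulum, stood at 7.07 and 6.27 TPM from 173 and 99 counts and was called higher in the first library (log2 ratio -1.44). Gpx7, also of the endoplasmic reticulum, had 1 and 26 counts, a ratio of 16.8 with a counting interval of 2.75 to 687. In the first library Gpx8 stood level with Gpx4 by TPM (7.46 for Gpx4) but had more counts, 173 against 90. Gpx4 isoforms annotated with selenocysteine held 1.65 TPM there. In the second library Gpx8 was lower than Gpx4 by far.

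Genes that make and insert selenocysteine were expressed at low to moderate levels. The list of 9 includes the member Sephs2. The second library was higher for 4 of the 9, Sephs2 among them, and the first for 2, against 40.2% and 27.4% of all tested genes. The median log2 ratio was 0.55. Sepsecs, which forms selenocysteine on its tRNA, stood at 18.98 and 23.5 TPM, and the kinase gene Pstk, which acts one step earlier, at 10.9 and 17.2 TPM. Sars, whose enzyme first loads that tRNA with serine, stood at 1.82 and 50.1 TPM, and Secisbp2l, a relative of the SECIS binding protein, at 19.3 and 18.96 TPM. The 7 genes of selenium uptake and handling were low in the first library, and the second was higher for 5 of the 6 tested, where 40.2% of all tested genes were. Their median log2 ratio was 4.59, or 3.59 with Selenbp2, at 0 and 52 counts, set at its bound of at least 11.2-fold. Less the GC trend these medians were 1.82 and 0.96. The receptor gene Lrp1 stood at 0.87 and 97.5 TPM, Selenbp1 at 0.64 and 56.9 and the selenocysteine lyase gene Scly at 0.87 and 29.6. The known Selenop receptor genes Lrp8 (also called ApoER2) and Lrp2 (megalin), were under 1 TPM in both libraries.

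Glutathione synthesis and recycling supply the cosubstrate of the peroxidases. The list of 11 genes for them also held the glutaredoxin genes Glrx, Glrx2, Glrx3 and Glrx5. The second library was higher for 3 and the first for 4, Glrx2 and Glrx3 among these, against 40.2% and 27.4% of all tested genes. The median log2 ratio of the 11 was -0.40. Ggt1, the brush border enzyme that cleaves extracellular glutathione, stood at 6.23 and 841 TPM. The glutaredoxin gene Glrx stood at 131 and 531 TPM, Gclm, the modifier subunit of the first enzyme of synthesis, at 108 and 141, and Slc3a2, a shared heavy chain of amino acid transporters, at 15.3 and 159.9. Thioredoxins and peroxiredoxins form another peroxide-reducing system, represented by a list of 10 genes that also held Txnip and Srxn1. The second library was higher for 4 of them and the first for 1, beside the same 40.2% and 27.4%. Their median was 0.81. Prdx1 (1877 and 1235 TPM) and Txn1 (622 and 1279 TPM) were high in both libraries, well above Txnrd1. Prdx5 stood at 8.34 and 478 TPM and Txnip, an inhibitor of thioredoxin, at 43.7 and 222.

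Of 8 other antioxidant genes, the second library was higher for 4 and the first for 1, against 40.2% and 27.4% of all tested genes. Their median log2 ratio was 1.63. Cytosolic superoxide dismutase Sod1 stood at 36.1 and 903 TPM, catalase Cat at 222 and 251, the stress regulator Nfe2l2 at 153 and 201, and Nqo1, one of its known targets, at 17.5 and 53.3. All 4 genes that act beside Gpx4 in lipid peroxidation were called, 3 for the second library and 1 for the first. The shares over all tested genes were the same 40.2% and 27.4%, and the median of the 4 was 1.59. With the GC trend subtracted that median turned to -0.95, and 0 of the 4 were 2-fold or more higher in the second library while 2 were 2-fold or more lower. Lpcat3, which puts polyunsaturated chains into phospholipids, stood at 35.0 and 187 TPM and Acsl4, which activates such fatty acids, at 4.25 and 2.06. The Gpx4-independent protectors Aifm2 (also called FSP1) and Dhodh stood at 0.54 and 7.36 TPM and at 0.45 and 5.96 TPM.

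Of 7 partners of selenoproteins in the endoplasmic reticulum, the second library was higher for 2 and the first for 1. The shares over all tested genes were 40.2% and 27.4%, and the median log2 ratio of the 7 was 0.12. Vcp, the segregase that Selenos recruits, stood at 27.4 and 131 TPM, Derl1 at 20.3 and 60.2, Derl2 at 22.0 and 30.5 and Zdhhc6, the enzyme that works with Selenok, at 15.1 and 21.2. Derl3 had 0 and 126 counts, which is at least 27.1-fold higher in the second. With the GC trend subtracted the medians were 0.04 for selenocysteine synthesis, -0.43 for glutathione, 0.40 for thioredoxins and peroxiredoxins, 1.198 for the other antioxidant genes and 0.25 for these partners. All genes tested had a median of 0.26, or -0.01 less that trend, and the lists were small, so these medians describe the genes and set no list apart.

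The protein-coding genes nearest to the 3 most abundant members were found by the distance in log2(TPM + 1) over the 2 libraries. For Selenop they were Reg1 (distance 0.54, 3343 and 5647 TPM), Fabp2 (0.59) and B2m (0.81). For Gpx4 they were Slc26a6 (0.16, 6.89 and 719 TPM), Rps28 (0.17) and Gstm1 (0.23). For Selenof they were Asah2 (0.081, 296 and 196 TPM), Abcc2 (0.11) and Hpgd (0.13). With 2 libraries, such a likeness states that the genes had similar levels and no more.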

How the data were processed

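Polyadenylated RNA of small intestine from 1 mouse was measured in 2 technical libraries, so p-values compare these libraries and cover counting error only. Per the file headers, the authors deposited gene and transcript tables in the RSEM format with expected counts (estimates that need not be whole), TPM, FPKM and, per transcript, isoform shares in percent of gene TPM, along with posterior SDs of the counts. The deposited notes name assembly mm10 and annotation M4. Aligner, quantifier version and read filters were not given in the sources used here. Depth was 28277875 and 24509862 counts.

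Identifiers without version were matched to GENCODE M21 for symbols, positions and sequences (42462 of 43346 genes). The GC content of a gene was an unweighted mean over its deposited transcripts, taken from their M21 sequences. Isoforms with few reads counted as much as main ones, and an M21 sequence can differ in length from the transcript quantified. Coordinates count from 1. Expected counts were rounded to whole numbers. A two-sided exact binomial test was run for each gene with 20 or more counts, with TMM sizes from edgeR 4.0.16 and 0.5 prior counts in log2 ratios. The edgeR quasi-likelihood test could not be fitted, since no residual degrees of freedom were left. DESeq2 1.42.0 size factors, total counts, other count and fold limits, FPKM and TPM without mitochondrial genes were alternatives. Fold and count intervals are exact at 95%. A GC trend was fitted by lowess (span 0.3) on tested genes without mitochondrial genes and their copies, which were found with BLAST 2.17.0 at 95% identity over 100 bases. Bounds for 0 counts used 3 counts per library. The test was checked on simulated data.

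The members and gene lists were chosen with earlier results of these data known. The text names all members, every other selenoprotein and glutathione peroxidase gene, up to 4 most abundant genes of each other list, the 3 nearest genes of the 3 most abundant members, and transcripts at 1 TPM and 5% of a gene or more. Lrp2, Lrp8, Derl3 and Ccdc152 were named outside that rule, after their values were seen, as were Gpx4-201 and the marker gene Ahsg. Gm44729, which has no values here, was also named outside it.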

Additional observations from a re-analysis of the deposited data

How the results depend on the processing

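Values of the members were limited by the first library, in which Selenow rested on 6 counts and Gpx2 on 29, and no setting replaces a second animal. Scaling by total counts shifted the median log2 ratio of all tested genes by 0.84, by counts outside mitochondrial genes by 0.20, by nuclear TPM by -0.24 and by GC trend removal by -0.27. With total counts, 0 members, 1 selenoprotein gene and 1520 tested genes were higher in the first library, and Selenok turned to 0.39. With the GC trend removed, 6 selenoprotein genes and 2651 tested genes were higher in the second library and 0 members, 2 selenoprotein genes and 2637 tested genes in the first, while Selenok turned to 0.090 and Sephs2 to -0.051. With nuclear TPM, Txnrd1 turned to -0.13 and Sephs2 reached only 0.91. The causes were not tested. The Sephs2 value less the GC trend rests on an M21 transcript longer than the one quantified. In all, 46 of 54 counts stayed within 1.5 times, and 60 of 70 member log2 ratios kept their direction and call. With either library left out, the mean TPM was that of the other library, and Selenop stayed at place 1 in the order by level, while the places ran from 2 to 4 for Selenof, 2 to 6 for Gpx4, 3 to 8 for Gpx1 and Txnrd1, 4 to 7 for Sephs2, 5 to 10 for Selenow and Selenok, 6 to 9 for Gpx2 and 7 to 9 for Gpx3. No paired analysis was possible because there was 1 group of 2 libraries.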
